A study of Sus scrofa with 24 samples.

Results

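Activity-dependent immediate early genes were followed in the hippocampus of 24 piglets. The set was a named list of 10 genes: FOS, FOSB, JUNB, EGR1, EGR2, ARC, NPAS4, NR4A1, IER2 and DUSP1. They were found by matching the Entrez Gene identifier of each row of the deposited tables to the pig symbol, and 7 of the 10 had a row among the 38882 genes listed. FOSB, ARC and NR4A1 had none under their pig identifiers and were not analysed here. The 7 others, FOS, JUNB, EGR1, EGR2, NPAS4, IER2 and DUSP1, all passed the filter on low counts (at least 1 CPM, counts scaled to library size, in at least 3 libraries) that 16326 genes passed.

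The animals were PIC Camborough (dam) x PIC 359 (sire) piglets born at full term and euthanized at 14 days of age. Small for gestational age (SGA) piglets and same-sex littermates of a birth weight appropriate for gestational age (AGA) drank either a control formula (CON) or a hydrolyzed fat formula (HF), in which free fatty acids, monoacylglycerol and lecithin took the place of part of the triglyceride oils and cholesterol was added. This gave 4 groups of 6 piglets, each named by its birth size and its formula. The labels number 12 pairs, littermates by the description of the study, each with 1 SGA and 1 AGA piglet on the same diet and with the same replicate number, and they place replicates 1 to 3 in cohort 1 and replicates 4 to 6 in cohort 2. SGA status rested on birth weight alone. RNA came from dissected hippocampus without separation of cell types, so fewer cells of a type and less RNA per cell cannot be told apart.

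Immediate early genes are transcribed within minutes of neuronal firing, without new protein synthesis, when calcium entry and kinase cascades act on transcription factors such as CREB and SRF that already sit at their promoters. Their RNAs are short-lived, so the level in a dissected hippocampus reflects the last minutes to hours of an animal's life, including handling and stress as well as normal activity. FOS, FOSB and JUNB are subunits of the AP-1 transcription factor. EGR1 and EGR2 are zinc finger transcription factors, NPAS4 is a neuron-enriched factor induced by calcium entry, and NR4A1 is an orphan nuclear receptor. ARC is a dendritic protein that regulates glutamate receptor trafficking. IER2 is a nuclear protein induced early by growth factors, and DUSP1 is a phosphatase that switches off MAP kinases and is also induced by glucocorticoids.

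All positions are in the Sscrofa10.2 pig genome, as the deposited tables give them. JUNB (gene 100523358) lies on chromosome 2 from 66505351 to 66507024 on the plus strand, with 2 exons. IER2 (100525209) lies on the same chromosome from 66210147 to 66211956 on the minus strand and has 1 exon. EGR1 (100520726) and NPAS4 (100520174) are on chromosome 2 as well, EGR1 from 146156073 to 146159945 on the plus strand with 2 exons and NPAS4 from 5066741 to 5072489 on the minus strand with 8 exons. FOS (100144486) lies on chromosome 7 from 104293828 to 104296291 on the plus strand with 4 exons. EGR2 (100038004) lies on chromosome 14 from 71516963 to 71523663 on the minus strand with 3 exons, and DUSP1 (100522469) on chromosome 16 from 55768679 to 55770832 on the plus strand with 4 exons. The counts behind each value cover exonic reads on the strand of the gene.

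Between 6017336 and 9284355 reads per library were assigned to genes, and 3 reads corresponded to 0.323 to 0.499 CPM. All 60 pairs of libraries within a group differed by more than sampling noise, with a chi-square of at least 4.98 per gene. Of 6 neuronal markers, 5 had a row, and their summed level was 4590 to 7106 CPM in 22 libraries. It was lower in 2 AGA libraries, at 2745 CPM in AGA CON replicate 2 (litter 4) and 3480 CPM in AGA HF replicate 4 (litter 7). The same libraries held 11520 and 11180 CPM of the 4 astrocyte markers, against 6955 to 10000 CPM in the other 22 libraries. Values without these libraries are given below beside the results that they moved most.

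The 7 genes covered a wide range of levels (see the plot of levels by group). On the scale of CPM per kilobase of annotated exon, the mean over 24 piglets was 43.4 ± 7.95 (SD, n = 24) for JUNB, 24.8 ± 4.28 for DUSP1, 12.3 ± 2.99 for EGR1 and 8.01 ± 1.14 for IER2. The lowest levels per kilobase were 2.74 ± 0.766 for FOS, 0.809 ± 0.359 for EGR2 and 0.440 ± 0.229 for NPAS4. JUNB thus stood above 86.1% of tested genes and NPAS4 above 7.73%. In every piglet JUNB exceeded DUSP1, DUSP1 exceeded EGR1, IER2 exceeded FOS and FOS exceeded EGR2. The neighbours EGR1 and IER2 kept their order in 21 of 24 piglets, as did EGR2 and NPAS4, so these orders were not fixed in every animal. The annotated exon lengths run from 1104 bases for DUSP1 and 1143 for FOS to 3403 for NPAS4, and levels per kilobase depend on these models.

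Counting limits differed accordingly. FOS had 6 to 39 reads per library, EGR2 8 to 38 and NPAS4 3 to 23, whereas JUNB had 307 to 743, EGR1 139 to 426, DUSP1 127 to 279 and IER2 80 to 148. At their mean counts, counting alone gives a coefficient of variation of 30.1% for NPAS4, 23.7% for EGR2 and 20.5% for FOS, against 52.0%, 44.4% and 27.9% observed over the 24 piglets. For the better-covered genes the observed value was several times the counting value in JUNB (18.3% against 4.29%) and EGR1 (24.2% against 5.84%). It was closer to it in DUSP1 (17.3% against 6.98%) and IER2 (14.3% against 9.61%). These values cover counting error only.

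**Figure D1:**
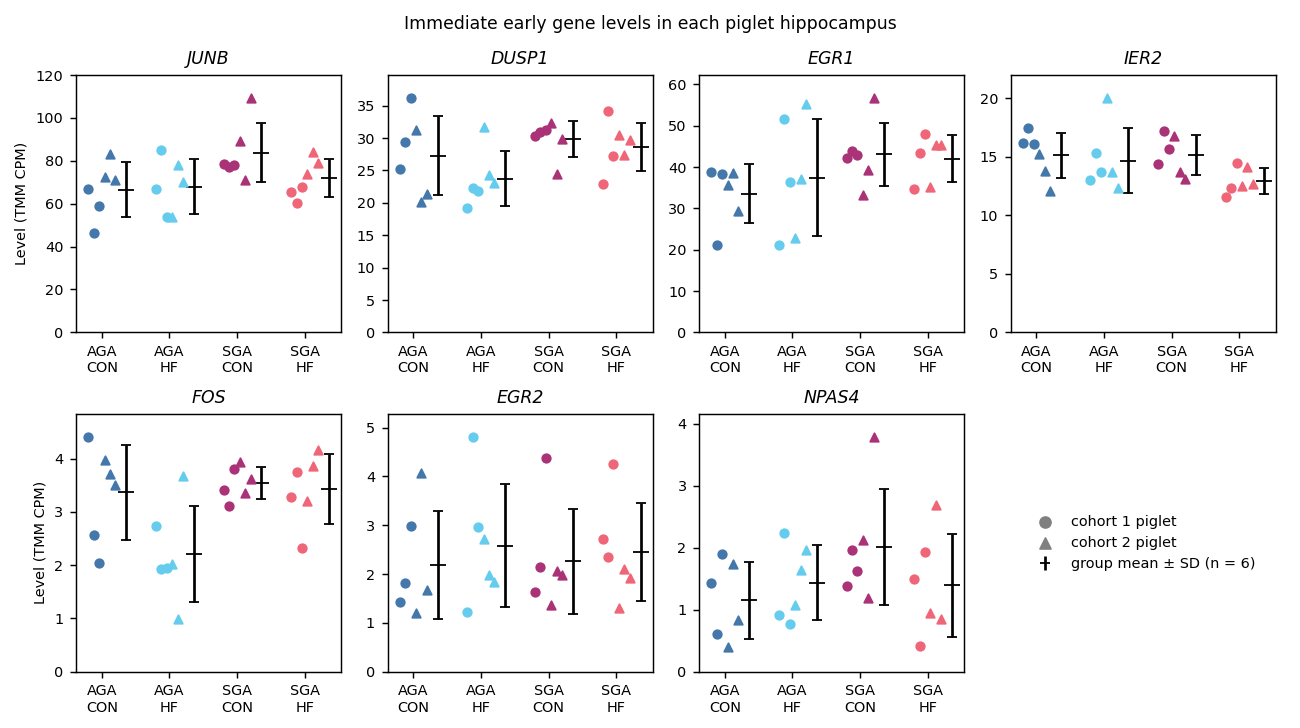
Level of each of the 7 genes (y axis, TMM-normalised CPM on a linear axis from 0) in each piglet of the 4 groups (x axis, n = 6 per group). Circles are cohort 1 piglets and triangles cohort 2 piglets, and the black bars give the group mean ± SD. The 4 groups overlapped for every gene, and 5 AGA piglets lay below the lowest SGA piglet for FOS.

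Among the AP-1 subunits, FOS, widely used as a marker of neuronal activity, was lowest in AGA HF piglets. Its lowest, median and highest levels were 2.03, 3.61 and 4.40 CPM in AGA CON and 0.988, 1.98 and 3.67 CPM in AGA HF. In SGA CON they were 3.12, 3.51 and 3.94 CPM, and in SGA HF 2.32, 3.51 and 4.16 CPM. The SGA groups thus sat within the range of AGA CON, while 5 of 12 AGA piglets fell below the lowest SGA piglet. The lowest value of all, 0.988 CPM, came from the 6 reads of AGA HF replicate 5.

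JUNB, the AP-1 partner with the highest level per kilobase of the set, ranged from 46.2 through a median of 68.9 to 83.3 CPM in AGA CON and from 53.6 through 68.5 to 85.0 CPM in AGA HF. In SGA CON the values were 70.9, 78.3 and 109 CPM, and in SGA HF 60.5, 70.8 and 84.2 CPM. SGA CON was the highest group by its median. Only AGA piglets, 4 of 12, lay under 60.5 CPM, and the lowest of them was AGA CON replicate 2, a library with few neuronal transcripts.

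EGR1, an activity-induced zinc finger factor, ranged from 21.1 through a median of 37.0 to 38.7 CPM in AGA CON and from 21.1 through 36.8 to 55.3 CPM in AGA HF. In SGA CON the lowest, median and highest levels were 33.3, 42.5 and 56.7 CPM, and in SGA HF 34.8, 44.3 and 48.1 CPM. Of the 12 AGA piglets, 4 lay below every SGA piglet, and both libraries with few neuronal transcripts were among them, at 21.1 CPM and 22.9 CPM. The AGA HF group held both the second highest EGR1 level of the 24 piglets, 55.3 CPM, and the lowest.

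EGR2, the zinc finger factor better known from myelinating Schwann cells, spanned 1.19 to 4.06 CPM in AGA CON with a median of 1.74 CPM, and 1.21 to 4.80 CPM in AGA HF with a median of 2.34 CPM. In SGA CON it spanned 1.36 to 4.39 CPM with a median of 2.01 CPM, and in SGA HF 1.31 to 4.26 CPM with a median of 2.23 CPM. No group stood apart, and each of the 4 groups held 1 piglet above 4 CPM. NPAS4, the neuron-enriched factor, ranged over 0.398 to 1.90 CPM (median 1.13) in AGA CON, 0.776 to 2.24 CPM (median 1.37) in AGA HF, 1.19 to 3.78 CPM (median 1.79) in SGA CON and 0.416 to 2.70 CPM (median 1.23) in SGA HF. The highest and lowest piglets differed 9.50-fold, the widest range of the 7 genes.

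IER2 varied least. Its lowest, median and highest levels were 12.1, 15.7 and 17.5 CPM in AGA CON and 12.3, 13.7 and 20.0 CPM in AGA HF. They were 13.1, 15.0 and 17.2 CPM in SGA CON and 11.6, 12.6 and 14.4 CPM in SGA HF. The highest piglet, AGA HF replicate 4, was 1 of the 2 with few neuronal transcripts. Both HF medians lay below both CON medians.

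DUSP1, the MAP kinase phosphatase, ranged from 20.2 through a median of 27.3 to 36.2 CPM in AGA CON and from 19.3 through 22.7 to 31.7 CPM in AGA HF. In SGA CON the values were 24.5, 30.6 and 32.3 CPM, and in SGA HF 22.9, 28.6 and 34.1 CPM. Here 5 of 12 AGA piglets lay below the lowest SGA piglet, and the highest AGA piglet lay above every SGA piglet.

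The first comparison asked whether birth size changed these genes. None of the 7 genes was a differentially expressed gene (DEG) for the main effect of size, in a fit that adjusted for sex and 5 surrogate variables. The smallest FDR p of the 7 was 0.621 (edgeR quasi-likelihood test, DEGs called at FDR p under 0.4, adjusted over 7 contrasts together), and 0.478% of all genes passed that threshold. At an unadjusted p under 0.05, which 10.6% of all genes reached, there were 2 of 7 genes. JUNB was higher in SGA piglets by 0.17 ± 0.06 on the log2 scale (estimate ± SE, 1.12-fold, edgeR) and DUSP1 by 0.23 ± 0.11 (1.17-fold, edgeR). DESeq2 and limma voom likewise called none of the 7 and gave 2 each at that unadjusted threshold.

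All 7 estimates lay above 0 in this fit, as did 49.2% of all genes, with a median of 0.15 against -0.0023 over all genes. FOS differed by 0.15 ± 0.15, EGR1 by 0.14 ± 0.13 and NPAS4 by 0.36 ± 0.29. EGR2 (0.06 ± 0.27) and IER2 (0.01 ± 0.08) were close to 0, and both fell below 0 when sex alone, or sex and cohort, replaced the surrogate variables. Without the 2 libraries low in neuronal markers, 6 of 7 estimates stayed above 0, again with 2 at an unadjusted p under 0.05 and none called. JUNB was called when p-values were adjusted within the size contrast alone (FDR-adjusted p = 0.33, edgeR), and also without SGA HF replicate 3 (FDR-adjusted p = 0.394) or SGA CON replicate 4 (FDR-adjusted p = 0.380). JUNB and DUSP1 did not keep an unadjusted p under 0.05 with every single piglet left out. JUNB differed by 0.12 ± 0.06 without AGA CON replicate 1, and DUSP1 missed that p in 13 of 24 such fits, with estimates of 0.19 to 0.29 over all 24. Without AGA HF replicate 6, FOS (0.45 ± 0.18) and EGR1 (0.26 ± 0.08) instead had an unadjusted p under 0.05, and EGR1 ranged from 0.0078 to 0.26 over the piglets left out. FOS also had one with sex only in place of the surrogate variables (0.34 ± 0.16), and with sex and cohort. In cohort 1 alone none of the 7 had an unadjusted p under 0.05, and in cohort 2 alone JUNB did (0.23 ± 0.10), in fits with sex only.

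**Figure D2:**
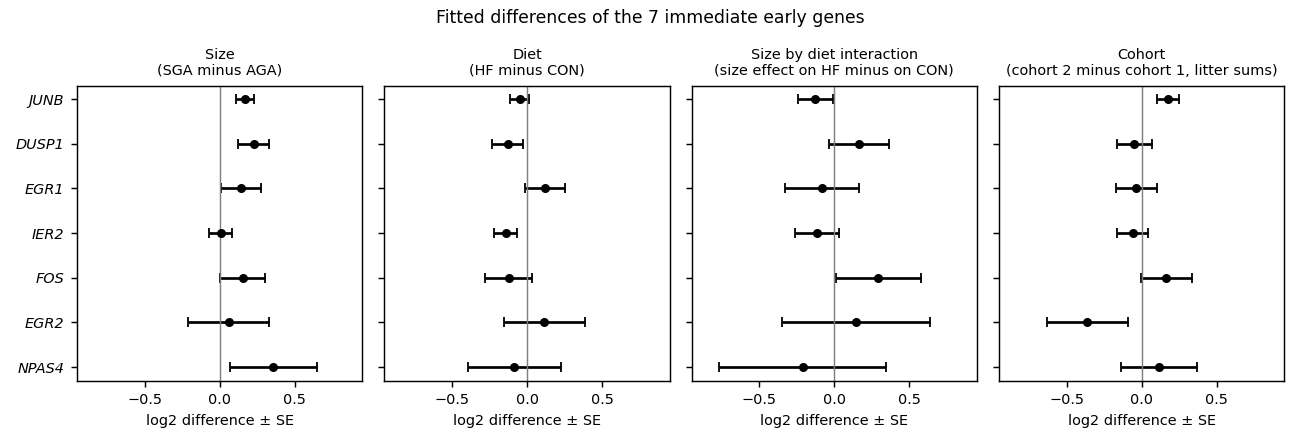
Fitted log2 differences (x axis, points, with SE as bars) of the 7 genes (y axis) for size, diet, their interaction and cohort, from edgeR. All 7 size estimates lay above 0, from 0.01 for IER2 to 0.36 for NPAS4, and no estimate passed its FDR threshold. With sex as the only covariate, the size estimates of EGR2 and IER2 were below 0.

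The littermate design allowed size to be compared within each litter. The SGA piglet had the higher level in 10 of 12 litters for DUSP1 and in 9 of 12 for FOS, JUNB, EGR1 and EGR2 (see the plot of littermate differences). NPAS4 was higher in the SGA piglet in 6 of 12 litters and IER2 in 5 of 12. Of the 84 gene-by-litter differences, 57 were above 0. By litter, between 2 and 7 of the 7 genes were higher in the SGA piglet, and at least 4 genes were in 9 of the 12 litters. The 84 differences come from the same piglets and are not independent. The shares of all genes for these litter counts are not given. Of the 7 mean differences, 6 lay above 0, against 51.2% of all genes.

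FOS was higher in SGA piglets by a mean of 0.37 ± 0.16 log2 CPM (SE, 12 litters, 1.29-fold), with single litters from -0.35 to 1.72. EGR1 was higher by 0.31 ± 0.13 (1.24-fold), from -0.28 to 1.05. DUSP1 was higher by 0.21 ± 0.07 (1.16-fold), from -0.21 to 0.61. In an exact sign-flip permutation test over the 12 litters (two-sided), these 3 genes had unadjusted p-values of 0.0298, 0.0371 and 0.0083. Over all genes, 12.6% reached an unadjusted p under 0.05 in this test, and 5.78% did so with SGA higher. After adjustment over all genes none of the 7 passed an FDR p of 0.05 (smallest 0.224, DUSP1, exact permutation test), and the share of all genes that passed was 0%.

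JUNB differed by 0.22 ± 0.10 (1.16-fold, exact permutation p = 0.0562). NPAS4 had a mean difference of 0.30 ± 0.33 and IER2 of -0.08 ± 0.07. EGR2 had a mean difference of 0.01 ± 0.18, with 3 litters at -0.949, -0.919 and -0.898 and 9 above 0. The litters fell to both sides for every gene.

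The FOS and EGR1 results depended on single litters, and that of DUSP1 did not. With litter 3, 6, 7 or 9 left out, FOS had an exact permutation p of 0.0596 in each case. EGR1 had exact permutation p-values of 0.0566 to 0.0742 without litter 1, 4, 5, 7, 9 or 12. JUNB fell under 0.05 without litter 3 (exact permutation p = 0.00879) or litter 10 (exact permutation p = 0.0322). DUSP1 stayed between 0.00293 and 0.0166 throughout. Without litters 4 and 7, which hold the 2 libraries low in neuronal markers, only DUSP1 of the 7 genes was left at an exact permutation p under 0.05. It then differed by 0.26 ± 0.07 (exact permutation p = 0.00781, 10 litters), while the mean difference was 0.20 ± 0.13 for EGR1, 0.36 ± 0.19 for FOS and 0.14 ± 0.10 for JUNB. Within either cohort of 6 litters, none of the 7 genes had an exact permutation p under 0.05, where the smallest possible is 0.0313.

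Marker levels moved with litter differences as well. The summed neuronal markers were higher in the SGA piglet in 8 of 12 litters, by a mean of 0.18 log2 (SD 0.33), and by 0.06 (SD 0.18) without litters 4 and 7. The summed oligodendrocyte markers were lower in the SGA piglet in all but 1 litter, by a mean log2 difference of -0.30 (SD 0.32). The part of these marker differences in the results above was not tested.

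When the litter entered the fit as a block and sex and surrogate variables were dropped, the main effect of size again gave no DEG among the 7 genes, but 4 instead of 2 had an unadjusted p under 0.05 (edgeR). These were DUSP1 (0.21 ± 0.07, FDR-adjusted p = 0.442), EGR1 (0.30 ± 0.11, FDR-adjusted p = 0.498), JUNB (0.21 ± 0.08, FDR-adjusted p = 0.511) and FOS (0.37 ± 0.17, FDR-adjusted p = 0.583). The FOS and EGR1 estimates were thus more than 1.5 times those of the fit with surrogate variables. Over all genes the block also called more for size, 420 against 78. The share of all genes at an unadjusted p under 0.05 in the block fit is not given here.

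**Figure D3:**
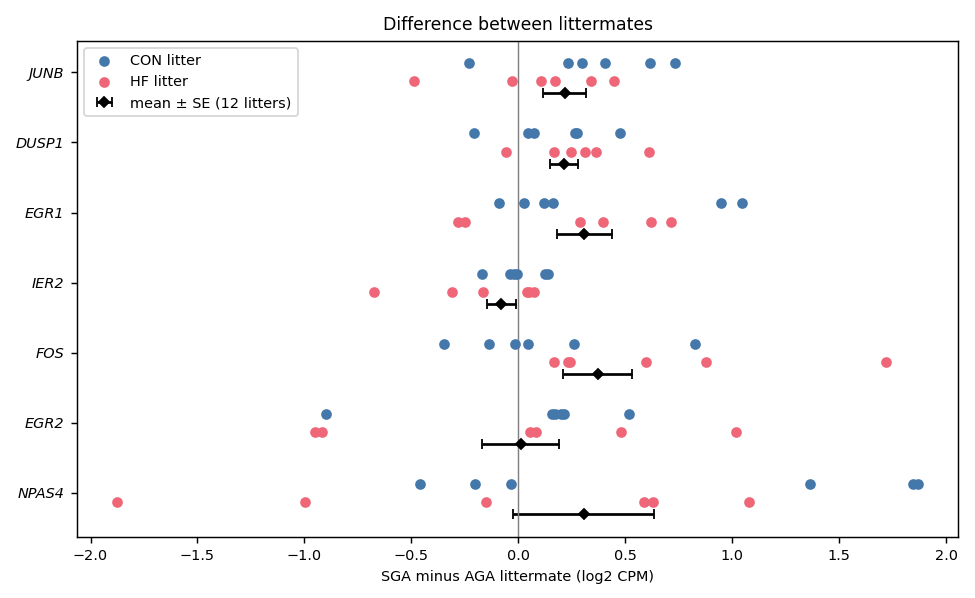
Difference between the SGA and the AGA piglet of each litter (x axis, log2 CPM) for the 7 genes (y axis), with CON litters in blue, HF litters in red and the mean ± SE over 12 litters in black. DUSP1 had 10 of 12 litters above 0, and all 6 HF litters lay above 0 for FOS.

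Split by diet, the pattern was not the same for each gene, although no difference between diets passed a test. FOS was higher in the SGA piglet in all 6 HF litters, by a mean of 0.64 log2 CPM (exact permutation p = 0.0313, the smallest that 6 litters allow), and in 3 of 6 CON litters, with a mean of 0.11. JUNB had a mean of 0.34 in CON litters and 0.09 in HF litters. NPAS4 had 0.73 in CON litters and -0.12 in HF litters. The size by diet interaction, which tests this contrast directly, called none of the 7 genes (smallest FDR p 0.895, edgeR), and none had an unadjusted p under 0.05. Of all genes, 0.049% were called for the interaction and 4.01% had an unadjusted p under 0.05. The estimate was 0.29 ± 0.29 for FOS, -0.13 ± 0.12 for JUNB and -0.21 ± 0.55 for NPAS4. With litter as a block the FOS interaction was 0.55 ± 0.33, and no gene of the 7 had an unadjusted p under 0.05. In cohort 1 alone JUNB did (-0.53 ± 0.23, edgeR), whereas its estimate in cohort 2 alone was 0.0165. EGR1 did without AGA HF replicate 6 (0.41 ± 0.17), against -0.08 ± 0.25 with that piglet. Without the 2 libraries low in neuronal markers, the EGR2 interaction was 0.71 ± 0.49, against 0.15 ± 0.49 with them. DESeq2 and voom called none and gave no unadjusted p under 0.05.

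In the pairwise comparisons, SGA CON against AGA CON called none of the 7 genes by edgeR, DESeq2 or voom, where edgeR called 0.129% of all genes. JUNB alone had an unadjusted p under 0.05 (0.23 ± 0.09, FDR-adjusted p = 0.620, edgeR), which 6.59% of all genes had. On CON, EGR1 had an estimate of 0.18 ± 0.18, and of 0.03 ± 0.17 without the 2 libraries low in neuronal markers, where that of EGR2 was -0.45. SGA HF against AGA HF called none either, against 0.288% of all genes. There DUSP1 alone had an unadjusted p under 0.05 (0.31 ± 0.15, FDR-adjusted p = 0.735, edgeR), which 8.02% of all genes had and which voom did not give. With litter as a block, 2 genes in each diet had an unadjusted p under 0.05 and none was called. These were JUNB (0.34 ± 0.12) and EGR1 (0.36 ± 0.16) on CON, and FOS (0.65 ± 0.24) and DUSP1 (0.27 ± 0.10) on HF. Over all genes the block called 205 on CON and 145 on HF, against 21 and 47 in the fit with surrogate variables.

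The formula was compared next. HF did not yield a DEG among the 7 genes as a main effect of diet (smallest FDR p 0.779, edgeR), where 0.159% of all genes were called, and none had an unadjusted p under 0.05, against 7.09% of all genes. DESeq2 and voom gave the same counts of 0. Leaving out single piglets changed the second count. FOS had an unadjusted p under 0.05 without AGA CON replicate 2 (-0.40 ± 0.17) or AGA HF replicate 6 (-0.42 ± 0.16), EGR1 without AGA HF replicate 1 (0.23 ± 0.10), and IER2 without AGA HF replicate 4 (-0.18 ± 0.08) or AGA CON replicate 6 (-0.18 ± 0.07). Estimates ran from -0.14 ± 0.08 for IER2 to 0.12 ± 0.14 for EGR1, and 5 of 7 lay below 0, with a median of -0.09 against 0.0020 over all genes. The EGR1 estimate was 0.01 ± 0.12 without the 2 libraries low in neuronal markers. In cohort 1 alone, DUSP1 (-0.33 ± 0.11, edgeR) and IER2 (-0.26 ± 0.11, edgeR) had an unadjusted p under 0.05, while their estimates in cohort 2 alone were 0.07 ± 0.13 and 0.0037 ± 0.14. In AGA piglets alone, HF against CON called none of the 7, against 0.0674% of all genes, and none reached an unadjusted p under 0.05, against 6.09%. In SGA piglets the count was also 0, against 0.0919% of all genes called and 5.16% at an unadjusted p under 0.05. DESeq2 and voom gave counts of 0 in both sizes as well. FOS in AGA piglets (-0.27 ± 0.22) and IER2 in SGA piglets (-0.20 ± 0.11) had the lowest estimates in these comparisons. FOS in AGA piglets had an estimate of -0.59 ± 0.24 and an unadjusted p under 0.05 with sex only, or with sex and cohort, in place of the surrogate variables (smallest FDR-adjusted p = 0.737, edgeR). In cohort 1 alone, DUSP1 in AGA piglets did as well (-0.51 ± 0.16), and its estimate was 0.12 ± 0.19 in cohort 2 alone. Without the 2 libraries low in neuronal markers, the estimates in AGA piglets were -0.04 ± 0.19 for EGR1, against 0.16 ± 0.19 with them, and -0.34 ± 0.38 for EGR2, against 0.04 ± 0.37.

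Because both piglets of a litter drank the same formula, diet was also fitted on the summed counts of the 12 litters. No gene of the 7 passed an FDR p of 0.05 (edgeR), nor did any gene at all (0%), and none of the 7 had an unadjusted p under 0.05, against 3.98% of all genes. DESeq2 on the litter sums gave 0 for both counts among the 7. FOS had the lowest estimate, -0.27 ± 0.16.

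The labels place the litters in 2 cohorts of 6. On litter sums adjusted for diet and sex, none of the 7 genes differed between cohorts at an FDR p under 0.05 (smallest 0.376, edgeR), whereas 0.447% of all genes did. JUNB alone had an unadjusted p under 0.05, as had 11.2% of all genes, and was 0.18 ± 0.07 higher in cohort 2 on the log2 scale (FDR-adjusted p = 0.376, edgeR). Its median was 66.7 CPM in cohort 1 and 75.9 CPM in cohort 2. It missed that p without litter 4 (0.08 ± 0.06), 9 or 10, and with AGA piglets alone or SGA piglets alone none of the 7 reached it. The EGR2 estimate for cohort 2 against cohort 1 was -0.36 ± 0.27, with medians of 2.54 CPM in cohort 1 and 1.94 CPM in cohort 2. It was -0.63 ± 0.29, with an unadjusted p under 0.05, without litter 10. DESeq2 also called none and gave 1 gene at an unadjusted p under 0.05.

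Some cell type markers moved with cohort. CX3CR1, the fractalkine receptor of microglia, was 0.81 ± 0.14 higher in cohort 2 (FDR-adjusted p = 0.0250, edgeR), a call that 6 of 17 alternative settings lost. The other microglial markers were not called and did not all move the same way. P2RY12 (0.47 ± 0.17) and AIF1 (0.21 ± 0.11) had higher estimates in cohort 2, and CSF1R a lower one (-0.53 ± 0.34). The summed markers were higher in cohort 2 by 0.56 log2 for microglia and 0.28 for oligodendrocytes. For choroid plexus the difference was -1.51. Their part in the JUNB and EGR2 values was not tested.

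The spread between piglets was described next, without a test. The biological coefficient of variation (BCV), edgeR's estimate of the true variation between animals of a group after counting noise, was 0.221 for EGR1, against 0.147 for the trend of all genes at that level. Of all tested genes, 94.0% had a lower ratio to the trend. JUNB (0.150 against 0.135), EGR2 (0.354 against 0.315) and NPAS4 (0.399 against 0.348) also lay above the trend. For these, 79.8%, 81.1% and 82.5% of tested genes had a lower ratio. DUSP1 (0.152 against 0.158) lay near the trend, and 67.4% had a lower ratio. IER2 (0.125 against 0.191) and FOS (0.182 against 0.295) lay below it, and 17.7% and 12.4% had a lower ratio. As a group the 7 genes were thus not uniformly more variable than other genes of their level.

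**Figure D4:**
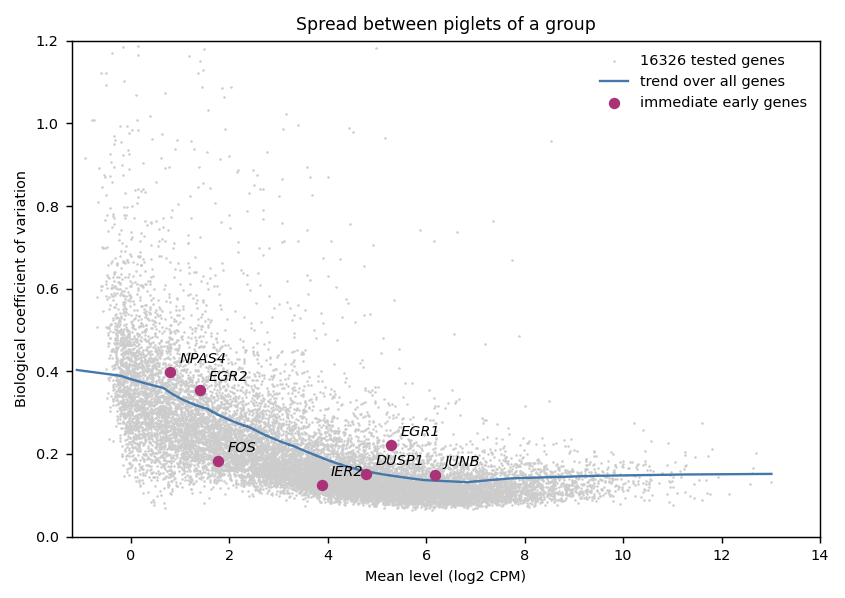
Biological coefficient of variation (y axis) against mean level (x axis, log2 CPM) for the 16326 tested genes in grey, with the trend over all genes as a line and the 7 immediate early genes in purple. EGR1 lay above the trend and FOS and IER2 below it. Of the tested genes, 72 lie above 1.2, outside the axis.

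The spread was larger in AGA than in SGA piglets for most of the genes, which is given as a description. The SD of log2 CPM within groups was larger in AGA for 6 of 7 genes, and 55.4% of all tested genes had the larger SD in AGA. FOS had an SD of 0.477 in AGA and 0.212 in SGA piglets, a ratio of 2.25, higher than that of 97.7% of tested genes. EGR1 had 0.474 and 0.225, a ratio of 2.11, and DUSP1 0.284 and 0.169, a ratio of 1.69. NPAS4 was the exception, at 0.613 and 0.651. The median ratio over all genes was 1.05. These SDs include counting error, which is larger at fewer reads. FOS had 6 to 34 reads per library in AGA and 18 to 39 in SGA piglets. Without the 2 libraries low in neuronal markers, the ratio was 2.45 for FOS, 1.80 for EGR1 and 1.57 for DUSP1, and fell to 1.09 for JUNB and 1.07 for IER2, with a median of 0.952 over all genes.

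The variation was also divided among cohort, litter within cohort and piglet within litter. By degrees of freedom alone, these would take 4.35%, 43.5% and 52.2% of the sum of squares of log2 CPM. Piglets within a litter accounted for 79.6% of it for NPAS4, the gene with the fewest reads, and for 32.8% for EGR2. Litters within a cohort accounted for 62.2% for DUSP1 and 60.0% for IER2, against a median of 44.1% over all tested genes. The share of cohort was 17.6% for JUNB and 11.0% for EGR2, and between 0.0616% and 2.82% for the others. The median gene had 3.98%. These shares were not adjusted for the design. Diet and sex, which littermates share, fall in the litter share, and birth size falls in the piglet share.

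The 7 genes did not move as 1 block across piglets (see the heat map by piglet). Over 24 piglets, which share litters and cohorts, the 21 pairwise Pearson correlations of log2 CPM had a median of 0.12 and ran from -0.32 (FOS with EGR2) to 0.63 (JUNB with NPAS4), and 12 lay above 0. JUNB, EGR1 and NPAS4 formed the 3 highest pairs, with r = 0.60 for JUNB with EGR1 and r = 0.53 for EGR1 with NPAS4. Against the mean z score of the other 6 genes, EGR1 had r = 0.53, NPAS4 0.52 and JUNB 0.43. FOS (0.03) and IER2 (-0.02) had values near 0. Within cohort 1 and cohort 2 the values for EGR1 were 0.71 and 0.29. Low read counts limit such values for FOS, EGR2 and NPAS4.

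By the mean z score of the 7 genes, the lowest piglet was AGA HF replicate 1 at -1.07, in which all 7 genes lay below their own mean. AGA CON replicate 2, 1 of the 2 libraries low in neuronal markers, followed at -0.71. The highest was SGA CON replicate 6 at 0.87, which also had the highest summed neuronal markers, 7106 CPM. Only SGA CON replicate 3 had all 7 genes above their mean. Over the 24 piglets the mean z score had r = 0.41 with the log2 summed neuronal markers and r = 0.22 with the log2 total count.

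**Figure D5:**
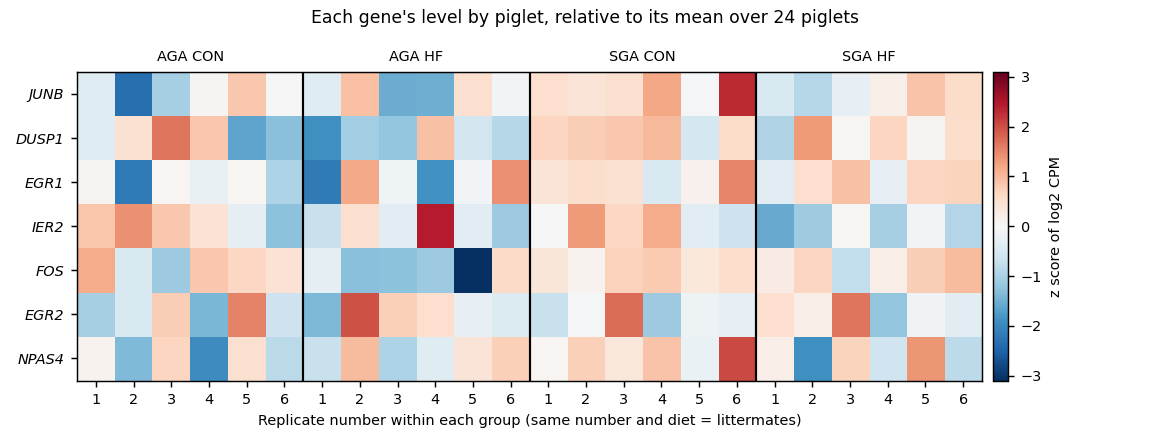
Level of each gene (rows) in each piglet (columns, by group and replicate number) as a z score of log2 CPM over 24 piglets, red above and blue below the gene's mean. AGA HF replicate 1 was below the mean for all 7 genes and SGA CON replicate 3 above it for all 7. FOS in AGA HF replicate 5 had the lowest score, -3.08.

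Outside the set, the genes whose log2 CPM followed the mean z score most closely over the 24 piglets were COTL1 (r = 0.75), NF1 (0.71), DUSP6 (0.70), BCL7B (0.69) and DCAKD (0.68). COTL1 encodes an actin-binding protein and NF1 neurofibromin, a Ras GTPase-activating protein. DUSP6 encodes a phosphatase that acts on ERK. Without the 2 piglets farthest from the median score, the values were 0.63, 0.59, 0.52, 0.74 and 0.64. Within the cohorts they ran from 0.61 to 0.81. These 5 were taken as the highest of all tested genes, so their values are a description.

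Other genes of the response were then counted. Of 35 further immediate early gene symbols, among them an older and a newer name of the same gene, 33 had a row and 31 were tested. None was called for size, diet, interaction or cohort (edgeR). For size, 4 of 31 had an unadjusted p under 0.05, all with SGA higher, against 10.6% of all genes. The median estimate was 0.10 and 24 of 31 lay above 0, against 49.2% of all genes. For diet, 4 had an unadjusted p under 0.05, all with HF lower, against 7.09% of all genes, and the median was -0.06. For the interaction, 1 positive and 2 negative estimates had an unadjusted p under 0.05, against 4.01% of all genes. For cohort, 6 genes were lower and 1 higher in cohort 2 at that p, against 11.2% of all genes. In the littermate test, 5 were higher and 1 lower in SGA piglets at an exact permutation p under 0.05, against 12.6% of all genes in either direction, and the median difference was 0.10. DESeq2 called 1 gene each for size, diet and cohort, voom called none, and the fit with litter as a block called 1 for size.

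Of 17 activity-regulated effectors, such as secreted peptides and growth factors, 15 were tested and none was called for size, diet, interaction or cohort. At an unadjusted p under 0.05 there were 3 for size, all with SGA higher, 3 higher and 1 lower on HF for diet, 0 for the interaction and 2 for cohort, against 10.6%, 7.09%, 4.01% and 11.2% of all genes. DESeq2 and voom called none either, the fit with litter as a block called 1 for size, and the fit without the 2 libraries low in neuronal markers called 1 for diet. In the littermate test 3 of 15 had an exact permutation p under 0.05, against 12.6% of all genes in either direction. All 3 had SGA higher, as had 5.78% of all genes at that p. Of the mean differences, 13 of 15 lay above 0, against 51.2% of all genes. Of 24 upstream regulator symbols, some of them older and newer names of the same gene, 22 had a row and 20 were tested. For size 1 was called, against 0.478% of all genes. CAMK2A, the alpha subunit of the calcium/calmodulin-dependent kinase of excitatory synapses, was 0.13 ± 0.03 log2 units higher in SGA piglets (FDR-adjusted p = 0.308, edgeR), a call that 13 of 36 alternative settings lost, among them those with litter as a block (FDR-adjusted p = 0.690) and without the 2 libraries low in neuronal markers (FDR-adjusted p = 0.418). DESeq2 called 2 regulators for size, the fit with litter as a block 2 and voom 1. At an unadjusted p under 0.05, 2 regulators were higher and 1 was lower in SGA piglets, against 10.6% of all genes in either direction. No regulator was called for diet, interaction or cohort by edgeR or DESeq2. At an unadjusted p under 0.05 there were 2, 1 and 1, against 7.09%, 4.01% and 11.2% of all genes. In CAMK2A, the SGA piglet was higher in 10 of 12 litters (exact permutation p = 0.0991).

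Of 10 genes that respond to handling and glucocorticoids, 9 were tested and none was called by edgeR, DESeq2 or voom. For size, 1 had an unadjusted p under 0.05, against 10.6% of all genes. The median estimate was -0.0059, with 4 of 9 above 0. The littermate test gave 1 gene at an exact permutation p under 0.05, against 12.6% of all genes, and the median difference was 0.03. Counts at an unadjusted p under 0.05 were 0 for diet and for the interaction and 2 for cohort. The shares of all genes were 7.09%, 4.01% and 11.2%.

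Among the marker lists of other cell types, no gene was called for size, diet or the interaction, and CX3CR1 alone was called for cohort. Summed levels over the 24 libraries ran from 38.5 to 65.3 CPM for the 2 dentate granule neuron markers, 6955 to 11520 CPM for astrocytes, 5894 to 13860 CPM for oligodendrocytes and 49.4 to 166 CPM for microglia. They ran from 120 to 265 CPM for endothelium, 49.5 to 112 CPM for meningeal fibroblasts and 92.9 to 398 CPM for blood. Choroid plexus markers ran from 1.81 to 149 CPM, the widest range in proportion. Apart from choroid plexus and dentate granule neurons, no marker with a row was at 0 in any library.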

How the data were processed

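RNA-sequencing of hippocampal polyA RNA gave 1 table per piglet, from stranded single-end libraries. The study put the average RNA quality number of its samples down to pre-spliced RNA. RNA quality was not a term in the fits, and its part in the levels was not tested. The authors trimmed reads with Trimmomatic (0.33), aligned them to Sscrofa10.2 with STAR (2.5.2a) and assigned them by strand to the exons of Entrez genes with featureCounts of Subread (1.5.0), and the deposited values are these raw counts. Of the 38882 identifiers, 23036 had a symbol in the name table used. The entry without a gene identifier, 0.613% to 1.62% of each library, was left out. The 10 members and all gene lists were chosen with earlier results of these data known.

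Counts were TMM-normalised and tested with edgeR (4.0.16, R 4.3.3) by quasi-likelihood, with terms for group, sex and 5 surrogate variables (sva 3.50.0). Genes needed 1 CPM in 3 libraries. P-values were adjusted by Benjamini-Hochberg over all genes and 7 contrasts, and called at an FDR p under 0.4, a lenient threshold. Cohort and, as a second test, diet were fitted on the count sums of the 12 litters, since littermates share both, and called at an FDR p under 0.05. Littermates were compared on log2 CPM (prior count 2) with an exact two-sided sign-flip permutation test over 12 litters, whose smallest p is 0.000488. The labels number the pairs, which the study describes as littermates. Littermates deviated from their group means with r of 0.0144 to 0.329 (median 0.128, over 0.1 in 9 of 12 litters), against a median of -0.0266 for other SGA and AGA piglets. DESeq2 (1.42.0), voom (limma 3.58.1), other filters, other covariates and leaving out piglets or litters served as alternatives. The scripts were tested on simulated data. The genes described were all members, list genes only where called, and the 5 other genes closest to the members' mean z score.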

Additional observations from a re-analysis of the deposited data

Results flagged for a closer look

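In 3 of the 28 gene-by-group sets of 6 piglets, 1 piglet lay far from the other 5, by a gap of more than the critical value of Dixon's test for the range of its group. Chance alone gives about 1 such case in 20 groups. All 3 were in SGA CON piglets. DUSP1 was lowest in replicate 5, at 24.5 CPM from 226 reads, with the next piglet at 29.9 CPM. EGR2 was highest in replicate 3, at 4.39 CPM from 38 reads, with the next at 2.13 CPM. NPAS4 was highest in replicate 6, at 3.78 CPM from 23 reads, with the next at 2.12 CPM. The last piglet also had the highest JUNB level, 109 CPM, the highest EGR1 level, 56.7 CPM, and the highest summed neuronal markers, 7106 CPM, of the 24 piglets. The part of these markers in its NPAS4 level was not tested.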

How the results depend on the processing

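No alternative made any of the 7 genes a DEG for diet, interaction or cohort, and 3 did for size, all through JUNB. These were adjustment within each contrast alone, with 1 gene called, and leaving out SGA HF replicate 3 or SGA CON replicate 4, with 0 to 1 called over all piglets left out. With litter as a replicate block, size had estimates of -0.0061 for EGR2 and -0.083 for IER2 and the interaction -0.10 for EGR2, and the block changed no call of the 7 genes. Over all genes, the number of size DEGs, 78, was 420 with the block, 210 with DESeq2, 108 with DESeq2 size factors, 53 with voom, 124 without the filter, 43 with the stricter filter, 13 with sex only, 1200 with adjustment within the contrast, 36 without the 2 libraries low in neuronal markers and 0 in either cohort alone. The cause was not tested.

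Estimates near 0 changed sign. For size, EGR2 was -0.026 with sex only, -0.044 with sex and cohort, -0.28 in cohort 2 and -0.093 without the 2 libraries low in neuronal markers, while IER2 was -0.089 with sex only, -0.089 with sex and cohort, -0.11 in cohort 1 and -0.068 in cohort 2. For diet in cohort 2, EGR2 was -0.0053, IER2 0.0037 and DUSP1 0.074. For the interaction, EGR2 was -0.16 with sex only, -0.12 with sex and cohort and -0.35 in cohort 1, JUNB was 0.017 and DUSP1 -0.099 in cohort 2, and EGR1 was 0.11 without the 2 libraries. For cohort in AGA piglets alone, EGR1 was 0.00051, NPAS4 -0.010 and DUSP1 0.0029.

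Leaving out each piglet moved size from -0.27 to 0.21 for EGR2, -0.021 to 0.037 for IER2, 0.075 to 0.45 for FOS, 0.0078 to 0.26 for EGR1 and 0.16 to 0.51 for NPAS4. Diet moved from -0.42 to 0.012 for FOS, -0.0014 to 0.23 for EGR1, -0.0038 to 0.35 for EGR2 and -0.20 to 0.074 for NPAS4. The interaction moved from -0.20 to 0.41 for EGR1, -0.15 to 0.50 for EGR2, -0.51 to 0.18 for NPAS4 and -0.018 to 0.27 for DUSP1. Leaving out each litter moved cohort from 0.082 to 0.24 for JUNB, -0.63 to -0.15 for EGR2, -0.17 to 0.087 for EGR1, -0.0099 to 0.27 for NPAS4, -0.17 to 0.019 for IER2 and -0.20 to 0.064 for DUSP1.

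In the littermate test, the 3 genes with an exact permutation p under 0.05 became 0 in CON litters, 1 in HF litters, 0 in cohort 1, 0 in cohort 2 and 1 without the litters of the 2 libraries, and 1 to 4 when each litter was left out (1 without litter 7 or 9, 4 without litter 10). With 6 litters only the smallest possible p passes. EGR2 was -0.038 in HF litters, -0.22 in cohort 2 and -0.080 to 0.099 over litters left out, NPAS4 was -0.12 in HF litters, and IER2 was 0.0051 in CON litters. Settings on the 2 libraries, on the cohorts in the littermate test and on litters left out of it were chosen after seeing the data. NPAS4, EGR2 and FOS had 3 to 39 reads per library and standard errors of 0.15 to 0.29 for size. Differences of about that size were not detectable. The smallest difference that could be called lies above these values and was not worked out. The NPAS4 estimate of 0.36 exceeded its standard error of 0.29 and had an unadjusted p of 0.23 (edgeR).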

Other observations

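DUSP6, the ERK phosphatase whose level followed the members' mean z score, was itself higher in the SGA piglet in 12 of 12 litters, by 0.36 ± 0.07 log2 CPM (SE). Its exact permutation p was 0.000488, the smallest that 12 litters allow, and its FDR p over all genes was 0.104. How many of all genes reached that smallest p is not given. In the size contrast DUSP6 differed by 0.31 (FDR-adjusted p = 0.428, edgeR). The choice of DUSP6 was made with these values in view. DUSP6 also belongs to the further immediate early genes counted above, so its values are not a separate observation. The members' mean z score, which it followed, was itself higher in the SGA piglet in 9 of 12 litters.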
